A study of Arabidopsis thaliana with 12 samples.

Results

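The WRKY transcription factor genes of groups I and II were examined in leaves in which a MAPK kinase was switched on, and 54 of the 32627 loci on the arrays belonged to this set. Membership was decided by gene name alone. The set took in the WRKY genes outside group III, without WRKY33, without the WRKY domains fused to NLR immune receptors and without WRKY10, and the rule used no measured value. Group I had 11 members, group IIa 3, group IIb 8, group IIc 18, group IId 7 and group IIe 7.

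WRKY proteins are plant transcription factors that hold a conserved DNA-binding domain with a zinc finger and recognise a short promoter element called the W-box, which is common in the promoters of defence genes and of the WRKY genes themselves. Group I proteins carry a pair of WRKY domains, and several of them are substrates of the mitogen-activated protein kinases (MAPKs) MPK3 and MPK6. Group II proteins carry a single domain and are sorted by sequence into IIa to IIe. Members act as activators or repressors in immunity, leaf senescence, phosphate uptake, heat tolerance, trichome and seed coat development and cell wall formation.

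RNA came from leaves of 4-week-old Arabidopsis plants, collected 24 h after infiltration. Every plant carried the MKK4DD transgene, a constitutively active form of the MAPK kinase MKK4 driven by a promoter that dexamethasone (DEX) switches on. The groups were sid2 DEX (sid2-2 mutant, 2 µM DEX), sid2 mock (sid2-2 mutant, 0.1% ethanol), Col DEX (wild type for SID2 in the Col accession, 2 µM DEX) and Col mock (wild type, 0.1% ethanol), with 3 arrays each. The sid2-2 mutant lacks a working isochorismate synthase, the enzyme that makes most pathogen-induced salicylic acid (SA), and the transgene was brought into it by a cross. DEX-treated plants lacking the transgene were not analysed here, so for the members the effect of DEX and that of the kinase cannot be told apart. The study reports that DEX did not induce the defence gene PR1 in a line with a DEX-inducible reporter gene, a control that did not cover the members. The number of transgenic lines behind each background is not given in the sources used here.

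Expression levels are given as log2 intensities in the order of replicates 1, 2 and 3, and changes as differences of log2 levels. A level is called dim when it lies near or below the lower quartile of its array, which was 4.15 to 4.20. Because probes differ in their response, levels are compared between groups for 1 gene and not between genes. The limit for a call was an adjusted p below 0.01 (limma, Benjamini-Hochberg over all 32627 loci) with a change of more than 2-fold. In whole leaves, fewer cells of a type and less RNA per cell cannot be told apart.

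The array labelled Col DEX replicate 2 stands apart. Its level of SID2 was 6.08, against 12.48 and 12.26 in the other Col DEX arrays, and within the 6.0 to 6.26 of the 6 sid2 arrays. The array was kept under its label, and results that rest on it are given with and without it. It lay more than 2-fold below both other Col DEX arrays for 3 members (WRKY51, WRKY58 and WRKY59), as it did for 0.638% of all loci, and more than 2-fold above both for 0 members, against 0.380% of loci. The mock arrays of replicate 2 also stood apart. In both backgrounds they exceeded the mean of mock replicates 1 and 3 by more than 2-fold for 4 members (WRKY40, WRKY26, WRKY25 and WRKY65), as they did for 1.73% of all loci, and were that far below it for 0 members, against 0.834% of loci.

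DEX changed the expression of 29 of the 54 members in both backgrounds, and rises were more frequent than falls. In sid2, 23 members rose, where 13.0% of all loci did, and 6 fell, where 14.8% of all loci did. In Col, 24 members rose, where 13.8% of all loci did, and 6 fell, where 15.0% of all loci did. Of these, 23 rose in both backgrounds (12.2% of all loci did) and 6 fell in both (14.0%). A single member, WRKY50, was called in Col alone, 0 members moved in opposite directions and 24 were called in neither background. Over the 54 members the median log2 change with DEX was 0.62 in sid2 and 0.87 in Col, while over all loci it was 0.04 in each background. DEX and mock arrays did not overlap for 31 members higher with DEX in sid2 (32.3% of loci) and 12 lower (28.3%). In Col this was so for 29 members higher with DEX (30.9% of loci) and 12 lower (26.8%). Leaving out the array labelled Col DEX replicate 2, 25 members rose (13.2% of loci) and 6 fell (14.5%) in Col. Without replicate 2 in any group, 22 members rose (12.8% of loci) and 6 fell (14.0%) in sid2, and 24 rose (12.9%) and 6 fell (14.6%) in Col.

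Calls were also counted by subgroup, where 12.2% of all loci rose in both backgrounds and 14.0% fell in both. In group IIb 6 of 8 members rose in both backgrounds and 0 fell, with median changes of 3.70 in sid2 and 3.70 in Col. Group IIc had 10 of 18 members that rose in both and 1 that fell. In group IIa 2 of 3 rose in both. Group I was split, with 2 of 11 members that rose and 3 that fell, and its median change was 0.21 in sid2 and 0.18 in Col. In group IId 2 of 7 rose and 1 fell, and in group IIe 1 of 7 rose and 1 fell. No test compared the subgroups, and with 3 to 18 members in each, these counts do not show that the subgroups differ.

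**Figure D1:**
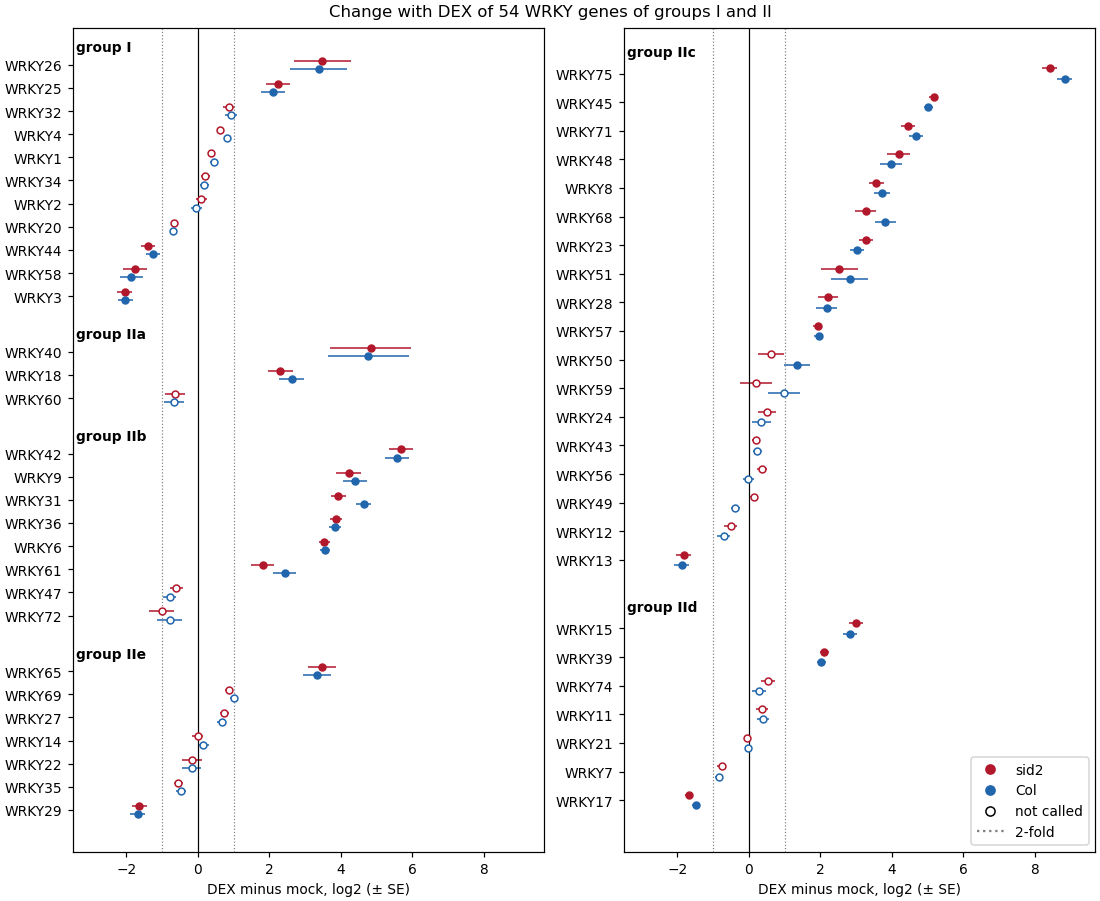
Log2 change with DEX (DEX minus mock, ± SE, n = 3 arrays per group) of the 54 members by subgroup, with sid2 in red above Col in blue. Filled points were called, open points were not, and dotted lines mark 2-fold. The 23 members that rose in both backgrounds lie at 1.81 or more, and the 6 that fell in both lie between -2.05 and -1.25.

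Markers of leaf cell types were examined in the same arrays, and their part in the changes of the members was not tested. Of 5 mesophyll genes, 3 fell in sid2 and 4 in Col, and the log2 of their summed intensity was 14.78 to 15.18 in sid2 DEX, 15.92 to 15.99 in sid2 mock, 14.60 to 15.13 in Col DEX and 15.87 to 16.03 in Col mock. Of 3 senescence genes, SAG13 and ORE1 rose in both backgrounds, and SAG12 changed by 0.35 in sid2 and 0.80 in Col and was not called. Their summed level was 13.43 to 13.59 in sid2 DEX, 10.20 to 10.54 in sid2 mock, 13.37 to 13.58 in Col DEX and 9.61 to 10.32 in Col mock. Of 3 guard cell genes, 2 fell in sid2 and 1 in Col, and of the phloem, xylem and pollen markers 0 were called. Of 3 root genes, PYK10 fell in both backgrounds and RHD6 was dim in each group. COBL9 averaged 4.44 in sid2 DEX, 3.50 in sid2 mock, 4.22 in Col DEX and 3.46 in Col mock and was not called.

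The mock arrays of replicate 2, in which WRKY40, WRKY26, WRKY25 and WRKY65 were high, also stood apart for some of these markers. The pollen gene VGD1, a pectin methylesterase of pollen tubes, was at 9.58 in replicate 2 of sid2 mock, against 4.35 and 4.02 in its other arrays, and at 8.23 in replicate 2 of Col mock, against 4.27 and 4.54. The pollen gene PPME1 was at 7.04 in replicate 2 of sid2 mock, against 4.15 and 3.90, and at 5.18 in replicate 2 of Col mock, against 3.76 and 3.79. The log2 of the summed intensity of these 2 pollen genes was 4.97 to 5.35 in sid2 DEX, 4.96 to 9.81 in sid2 mock, 5.19 to 5.40 in Col DEX and 5.03 to 8.39 in Col mock. ORE1, a NAC factor of leaf senescence, was at 9.21 in replicate 2 of sid2 mock, against 4.77 and 4.63, and at 8.27 in replicate 2 of Col mock, against 4.40 and 5.01. In each case replicate 2 was the highest mock array of its background. Their part in the mock levels of the 4 members was not tested.

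Group IIc held the largest rise among the members. WRKY75 (AT5G13080) encodes a regulator of phosphate starvation responses that also promotes leaf senescence. Its level was 12.73, 13.05 and 12.77 in sid2 DEX, 4.72, 4.05 and 4.52 in sid2 mock, 12.82, 13.19 and 12.96 in Col DEX and 4.04, 3.84 and 4.57 in Col mock. The mock arrays were dim in both backgrounds and the DEX arrays lay far above them. The log2 change was 8.42 ± 0.21 (SE) in sid2 (adjusted p 3.41e-10) and 8.84 ± 0.21 in Col (adjusted p 2.72e-10). No background level was analysed here, so the size of a rise over dim mock arrays is uncertain. WRKY45 (AT3G01970), a close relative of WRKY75 and an activator of a phosphate transporter gene, had 11.99, 12.34 and 12.30 in sid2 DEX, 6.86, 7.19 and 7.05 in sid2 mock, 12.24, 12.58 and 12.23 in Col DEX and 7.07, 7.45 and 7.47 in Col mock. Replicates lay close together and the groups did not overlap. WRKY45 rose by 5.17 ± 0.13 in sid2 (adjusted p 3.33e-10) and by 5.02 ± 0.13 in Col (adjusted p 3.74e-10).

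The related IIc genes WRKY8, WRKY28, WRKY48 and WRKY71 rose together. WRKY48 (AT5G49520), a repressor of basal defence against Pseudomonas syringae, had 10.36, 10.90 and 11.00 in sid2 DEX, 6.29, 7.22 and 6.19 in sid2 mock, 10.53, 11.08 and 10.73 in Col DEX and 6.69, 7.63 and 6.12 in Col mock. Its change was 4.19 ± 0.31 in sid2 (adjusted p 5.82e-07) and 3.97 ± 0.31 in Col (adjusted p 8.22e-07). In both mock groups replicate 2 was the highest array. WRKY28 (AT4G18170), an activator of the SID2 promoter, had 10.73, 11.25 and 10.70 in sid2 DEX, 8.50, 9.46 and 8.11 in sid2 mock, 10.38, 11.46 and 10.60 in Col DEX and 8.48, 9.14 and 8.30 in Col mock. Here replicate 2 was the highest array of each of the 4 groups. The change of WRKY28 was 2.20 ± 0.28 in sid2 and 2.17 ± 0.28 in Col (adjusted p 4.29e-05 and 4.61e-05). WRKY71, which promotes shoot branching, rose by 4.46 in sid2 and 4.68 in Col, over mock arrays that were close to dim, at 4.21 to 5.07. WRKY8, which acts in salt tolerance and in defence, rose by 3.57 in sid2 and 3.73 in Col.

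Further IIc members ranged from a fall to rises. WRKY23, which acts in auxin-dependent root development, rose by 3.27 in sid2 and 3.02 in Col, and WRKY57, which acts in drought tolerance, by 1.93 in sid2 and 1.95 in Col. WRKY68 rose by 3.27 in sid2 and 3.82 in Col, and its mock arrays were dim, between 3.16 and 3.27 in the 6 of them. WRKY13 (AT4G39410), which promotes lignification of stems, was the IIc member that fell. Its level was 5.22, 5.34 and 4.74 in sid2 DEX, 6.67, 7.52 and 6.57 in sid2 mock, 5.11, 5.22 and 5.06 in Col DEX and 6.74, 7.30 and 6.98 in Col mock. The groups did not overlap, and the change was -1.82 ± 0.21 in sid2 (adjusted p 1.81e-05) and -1.88 ± 0.21 in Col (adjusted p 1.35e-05). Its relative WRKY12, a repressor of secondary walls in the pith, changed by -0.51 in sid2 and -0.70 in Col and was not called. The members WRKY43, WRKY49 and WRKY56 were dim in each of the 4 groups and were not called.

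Group IIb contained WRKY6, WRKY42 and WRKY31, related genes of which WRKY6 and WRKY42 act in phosphate homeostasis and senescence. WRKY42 (AT4G04450) had 10.53, 11.67 and 11.24 in sid2 DEX, 5.53, 5.96 and 4.94 in sid2 mock, 10.30, 11.81 and 11.14 in Col DEX and 5.65, 5.66 and 5.19 in Col mock. It rose by 5.67 ± 0.34 in sid2 (51.1-fold, adjusted p 1.10e-07) and by 5.58 ± 0.34 in Col (adjusted p 1.13e-07). WRKY6 (AT1G62300) had 14.19, 13.99 and 14.36 in sid2 DEX, 10.66, 10.54 and 10.71 in sid2 mock, 14.24, 14.36 and 14.36 in Col DEX and 10.47, 10.64 and 11.17 in Col mock. Both genes had DEX arrays far outside the range of the mock arrays. The change of WRKY6 was 3.54 ± 0.15 in sid2 (11.6-fold, adjusted p 6.81e-09) and 3.56 ± 0.15 in Col (adjusted p 6.11e-09). WRKY31 rose by 3.93 in sid2 and 4.64 in Col. Its mock arrays were dim, at 3.92 to 4.20, so the sizes of these rises are uncertain. Over the alternatives its change was as low as 3.05 in sid2 and 3.74 in Col.

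WRKY9 (AT1G68150), also of group IIb, had 8.50, 8.98 and 9.89 in sid2 DEX, 4.92, 5.09 and 4.69 in sid2 mock, 7.99, 9.33 and 9.09 in Col DEX and 4.57, 4.30 and 4.36 in Col mock. Its mock arrays were close to dim, and the DEX arrays varied over more than 1 log2 unit in each background. The change was 4.22 ± 0.34 in sid2 (adjusted p 1.21e-06) and 4.39 ± 0.34 in Col (adjusted p 8.11e-07). WRKY36 rose by 3.86 in sid2 and 3.83 in Col. WRKY61 rose by 1.81 in sid2 and 2.42 in Col, over mock arrays that were close to dim, at 4.25 to 4.85. In sid2 it was not called without replicate 2 in any group (change 1.55, adjusted p 0.0232, in a range of 1.34e-04 to 0.0832 over the alternatives). The other IIb members were not called. WRKY47 changed by -0.61 in sid2 and -0.79 in Col, and WRKY72, which contributes to basal defence, by -1.01 ± 0.35 in sid2 (adjusted p 0.0301) and -0.79 ± 0.35 in Col (adjusted p 0.0805).

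**Figure D2:**
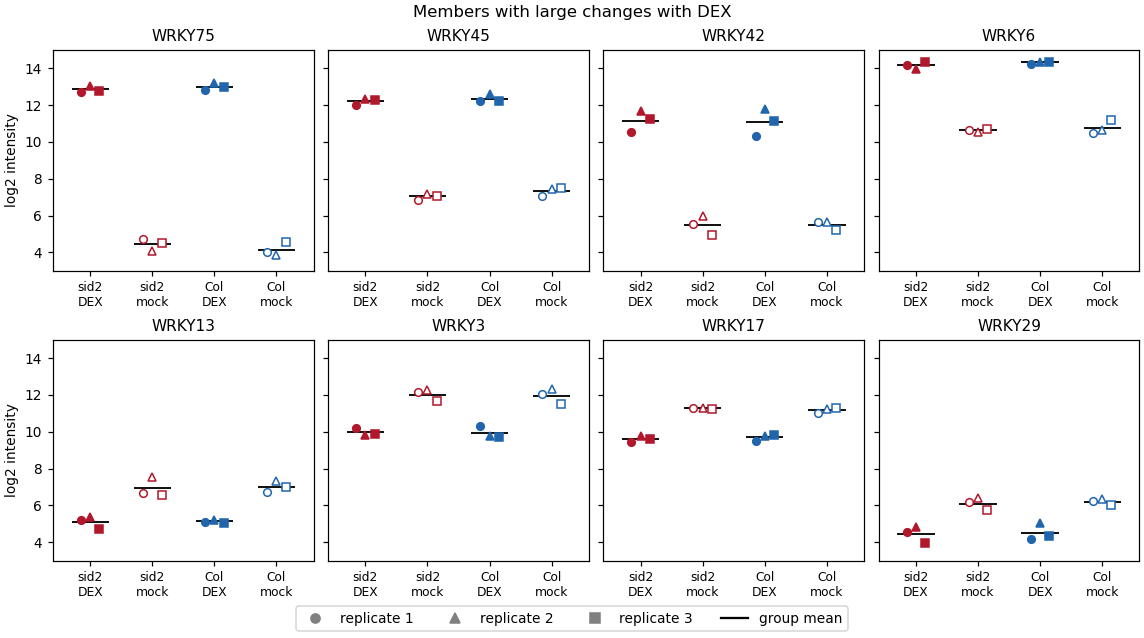
Log2 intensity on each of the 12 arrays (y axis) in the groups sid2 DEX, sid2 mock, Col DEX and Col mock (x axis) for 4 members that rose with DEX (upper row) and 4 that fell (lower row), with bars at group means. WRKY75 lies between 12.73 and 13.19 in the 6 DEX arrays and between 3.84 and 4.72 in the 6 mock arrays, and the DEX and mock arrays of the other panels do not overlap either.

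Group IIa is formed by WRKY18, WRKY40 and WRKY60, which bind one another and act in defence and in abscisic acid signalling, with WRKY18 and WRKY40 as joint repressors of defence against powdery mildew. WRKY40 (AT1G80840) had 12.99, 13.26 and 13.13 in sid2 DEX, 7.00, 10.89 and 6.99 in sid2 mock, 13.28, 13.15 and 13.34 in Col DEX and 6.66, 11.88 and 6.91 in Col mock. The DEX arrays agreed closely, while mock replicate 2 exceeded the mean of the other mock arrays by 3.89 in sid2 and by 5.10 in Col and still lay below each DEX array. The change was 4.84 ± 1.13 in sid2 (adjusted p 0.00349) and 4.77 ± 1.13 in Col (adjusted p 0.00371). Without replicate 2 in any group it was 6.07 ± 0.13 in sid2 and 6.52 ± 0.13 in Col. The call of WRKY40 was lost in either background when replicate 1 or replicate 3 of its DEX or mock arrays was left out, and the adjusted p over the alternatives reached 0.0196 in sid2 and 0.0213 in Col.

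WRKY18 (AT4G31800) had 12.54, 12.57 and 12.46 in sid2 DEX, 9.75, 10.80 and 10.10 in sid2 mock, 13.00, 12.62 and 12.71 in Col DEX and 9.72, 11.19 and 9.57 in Col mock. Mock replicate 2 was again the highest mock array, and DEX and mock arrays did not overlap. WRKY18 rose by 2.31 ± 0.34 in sid2 (adjusted p 1.47e-04) and by 2.62 ± 0.34 in Col (adjusted p 5.32e-05). WRKY60 (AT2G25000) had 9.77, 9.19 and 9.47 in sid2 DEX, 9.76, 10.52 and 10.10 in sid2 mock, 9.93, 9.07 and 9.63 in Col DEX and 9.77, 10.57 and 10.27 in Col mock. DEX and mock arrays of WRKY60 overlapped. Its change was -0.65 ± 0.28 in sid2 (adjusted p 0.0687) and -0.66 ± 0.28 in Col (adjusted p 0.0651), and it was not called.

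Group I held rises and falls. WRKY25 and WRKY26 act with WRKY33 in heat tolerance, and WRKY25 also in defence. WRKY25 (AT2G30250) had 12.05, 12.44 and 12.28 in sid2 DEX, 9.53, 10.94 and 9.54 in sid2 mock, 12.10, 12.27 and 12.25 in Col DEX and 9.62, 11.02 and 9.66 in Col mock. WRKY26 (AT5G07100) had 10.71, 10.56 and 10.55 in sid2 DEX, 6.32, 9.20 and 5.84 in sid2 mock, 10.37, 10.61 and 10.21 in Col DEX and 5.96, 9.25 and 5.84 in Col mock. For both genes mock replicate 2 stood between the other mock arrays and the DEX arrays. WRKY25 rose by 2.25 ± 0.34 in sid2 (adjusted p 1.71e-04) and by 2.11 ± 0.34 in Col (adjusted p 2.72e-04). WRKY26 rose by 3.48 ± 0.80 in sid2 (adjusted p 0.00315) and by 3.38 ± 0.80 in Col (adjusted p 0.00372). Without replicate 2 in any group, the change of WRKY26 was 4.55 ± 0.16 in sid2 and 4.39 ± 0.16 in Col, and that of WRKY25 was 2.62 ± 0.13 in sid2 and 2.53 ± 0.13 in Col. Like WRKY40, WRKY26 was not called when replicate 1 or 3 of either arm was left out, and its adjusted p reached 0.0303 in sid2 and 0.0362 in Col. WRKY33, their relative outside the set, changed by 2.52 in sid2 and 2.11 in Col, and WRKY10, which acts in the endosperm, by -0.13 in sid2 and 0.10 in Col.

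**Figure D3:**
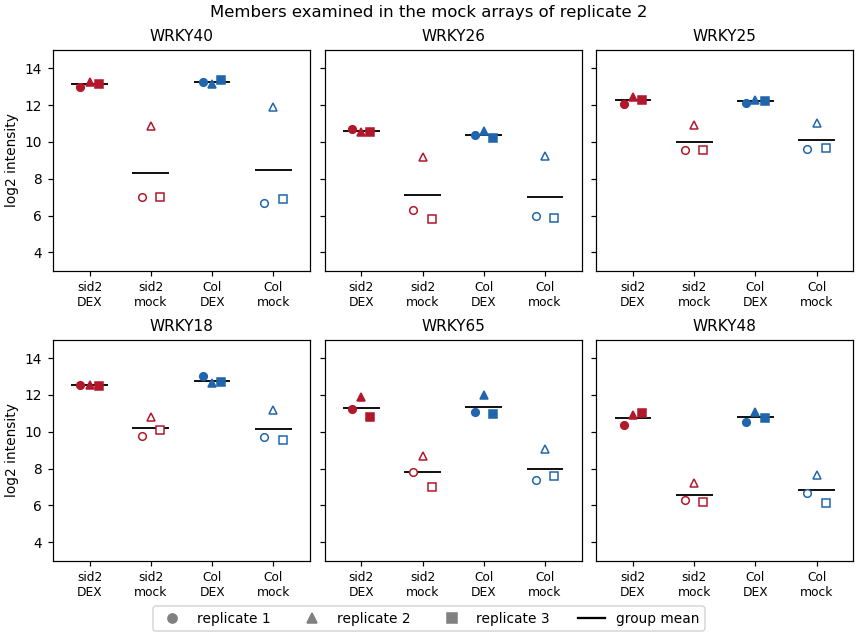
Log2 intensity on each array (y axis) by group (x axis) for WRKY40, WRKY26, WRKY25, WRKY18, WRKY65 and WRKY48, with a symbol per replicate number and bars at group means. The mock arrays of replicate 2 (open triangles) lie above the other mock arrays in each panel, by most for WRKY40, where they are at 10.89 in sid2 and 11.88 in Col.

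WRKY3 and WRKY58 were the group I members with the largest falls. WRKY3 (AT2G03340), which with its near relative WRKY4 supports resistance to necrotrophic fungi, had 10.21, 9.82 and 9.89 in sid2 DEX, 12.15, 12.26 and 11.64 in sid2 mock, 10.29, 9.76 and 9.71 in Col DEX and 12.04, 12.35 and 11.49 in Col mock. All 6 DEX arrays lay below all 6 mock arrays. The change was -2.05 ± 0.21 in sid2 (adjusted p 6.88e-06) and -2.04 ± 0.21 in Col (adjusted p 6.76e-06). WRKY4 changed the other way by less than 2-fold, by 0.63 ± 0.08 in sid2 and 0.82 ± 0.08 in Col (adjusted p 5.75e-05 and 6.84e-06), and was not called.

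WRKY44 (AT2G37260), known as TTG2, acts in trichome and seed coat development. It had 4.72, 4.85 and 4.45 in sid2 DEX, 6.17, 5.68 and 6.34 in sid2 mock, 4.42, 4.74 and 4.88 in Col DEX and 6.19, 5.60 and 6.01 in Col mock. The DEX arrays were close to dim. WRKY44 fell by 1.39 ± 0.20 in sid2 (adjusted p 1.05e-04) and by 1.25 ± 0.20 in Col (adjusted p 2.25e-04), and it was not called in either background on log2(intensity + 16), where the changes were -1.0 and -0.89. Of the 3 trichome markers, GL2 and TRY fell in both backgrounds and GL1 was not called, and the log2 of their summed intensity was 6.33 to 6.65 in sid2 DEX, 9.90 to 11.13 in sid2 mock, 6.34 to 6.56 in Col DEX and 10.08 to 11.76 in Col mock. Their part in the fall of WRKY44 was not tested.

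Other group I members changed by less than 2-fold. WRKY32 changed by 0.88 in sid2 and 0.93 in Col, WRKY1 by 0.37 in sid2 and 0.44 in Col, and WRKY20 by -0.68 in sid2 and -0.69 in Col, each with an adjusted p under the limit in both backgrounds. WRKY34, known from pollen development, had levels of 3.84 to 4.41 over the 12 arrays and changed by 0.21 in sid2 and 0.18 in Col. Among the 24 members called in neither background, 8 had an adjusted p under 0.01 in both but stayed under 2-fold, and the changes of the 24 spanned -1.01 to 0.88 in sid2 and -0.83 to 1.0 in Col.

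Group IId proteins bind calmodulin. WRKY15 (AT2G23320), which acts in growth and in responses to osmotic stress, had 11.71, 11.78 and 11.75 in sid2 DEX, 8.63, 9.14 and 8.44 in sid2 mock, 11.78, 11.95 and 11.95 in Col DEX and 8.80, 9.60 and 8.80 in Col mock. It rose by 3.01 ± 0.19 in sid2 (8.04-fold, adjusted p 1.69e-07) and by 2.82 ± 0.19 in Col (adjusted p 2.53e-07). WRKY39 (AT3G04670), which acts in heat tolerance, had 12.27, 12.12 and 12.33 in sid2 DEX, 9.95, 10.41 and 10.03 in sid2 mock, 12.19, 12.03 and 12.25 in Col DEX and 10.09, 10.25 and 10.05 in Col mock. DEX and mock arrays were well apart for both genes. The change of WRKY39 was 2.11 ± 0.13 in sid2 (adjusted p 1.17e-07) and 2.03 ± 0.13 in Col (adjusted p 1.43e-07).

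WRKY11 and WRKY17 are related IId genes that limit basal resistance to bacteria. WRKY17 (AT2G24570) had 9.42, 9.80 and 9.62 in sid2 DEX, 11.31, 11.30 and 11.23 in sid2 mock, 9.51, 9.75 and 9.84 in Col DEX and 11.00, 11.26 and 11.29 in Col mock. It fell by 1.67 ± 0.11 in sid2 (adjusted p 2.63e-07) and by 1.48 ± 0.11 in Col (adjusted p 6.18e-07). WRKY11 (AT4G31550) had 12.65, 12.54 and 12.55 in sid2 DEX, 12.16, 12.62 and 11.86 in sid2 mock, 12.74, 12.33 and 12.62 in Col DEX and 12.05, 12.43 and 12.02 in Col mock. Its DEX and mock arrays overlapped, and the change of 0.37 ± 0.18 in sid2 and 0.40 ± 0.18 in Col was not called (adjusted p 0.107 and 0.0812).

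In group IIe, WRKY65 (AT1G29280) had 11.21, 11.88 and 10.80 in sid2 DEX, 7.79, 8.69 and 6.98 in sid2 mock, 11.05, 11.98 and 10.95 in Col DEX and 7.36, 9.04 and 7.60 in Col mock. Replicate 2 was the highest array in each of the 4 groups, and DEX and mock arrays did not overlap. WRKY65 rose by 3.48 ± 0.39 in sid2 (adjusted p 1.55e-05) and by 3.33 ± 0.39 in Col (adjusted p 2.12e-05). WRKY22 and WRKY29 are known as targets of the MAPK cascade downstream of the flagellin receptor. WRKY29 (AT4G23550) had 4.53, 4.83 and 3.98 in sid2 DEX, 6.16, 6.39 and 5.73 in sid2 mock, 4.20, 5.03 and 4.33 in Col DEX and 6.25, 6.36 and 6.02 in Col mock. The DEX arrays were close to dim, and the change was -1.64 ± 0.21 in sid2 (adjusted p 4.45e-05) and -1.69 ± 0.21 in Col (adjusted p 3.41e-05). WRKY22 (AT4G01250) had 8.74, 8.80 and 8.37 in sid2 DEX, 8.75, 9.20 and 8.46 in sid2 mock, 8.50, 8.85 and 8.90 in Col DEX and 8.40, 9.74 and 8.66 in Col mock. Its DEX and mock arrays overlapped, and it was not called, with changes of -0.17 ± 0.27 in sid2 and -0.18 ± 0.27 in Col.

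Close relatives within the set often differed in their response. The DEX change of each gene was computed in the 3 same-numbered pairs of DEX and mock arrays and set against that of its relative (mean ± SD, n = 3 pairs), with the gene of the higher change first, so that the sign carries no information. WRKY4 exceeded WRKY3 by 2.68 ± 0.28 in sid2 and by 2.85 ± 0.40 in Col. WRKY15 exceeded WRKY7, which changed by -0.77 in sid2 and -0.83 in Col, by 3.77 ± 0.36 in sid2 and by 3.65 ± 0.50 in Col. WRKY11 exceeded WRKY17 by 2.03 ± 0.53 in sid2 and by 1.88 ± 0.41 in Col. These differences were several times their SD. WRKY18 exceeded WRKY60 by 2.96 ± 0.15 in sid2 and by 3.28 ± 0.44 in Col, and WRKY65 exceeded WRKY69 by 2.60 ± 0.29 in sid2 and by 2.33 ± 0.58 in Col. WRKY61 exceeded WRKY72 by 2.82 ± 1.0 in sid2 and by 3.21 ± 0.56 in Col, sizes made uncertain by mock arrays of WRKY61 that were close to dim. WRKY75 exceeded WRKY45, both strong risers, by 3.25 ± 0.53 in sid2 and by 3.82 ± 0.35 in Col, sizes made uncertain by the dim mock arrays of WRKY75. Other differences were closer to the spread between pairs. WRKY26 exceeded WRKY25 by 1.24 ± 1.19 in sid2 and by 1.28 ± 1.01 in Col, and WRKY40 exceeded WRKY18 by 2.53 ± 1.69 in sid2 and by 2.15 ± 2.01 in Col. WRKY31 exceeded WRKY6 by 0.38 ± 0.43 in sid2 and by 1.08 ± 0.63 in Col, sizes made uncertain by the dim mock arrays of WRKY31. WRKY51 exceeded WRKY50 by 1.92 ± 0.93 in sid2 and by 1.48 ± 1.03 in Col. WRKY22 exceeded WRKY29 by 1.48 ± 0.28 in sid2, several times its SD, and by 1.51 ± 0.93 in Col, where the spread was wider. The DEX arrays of WRKY29 were close to dim, so the sizes of both differences are uncertain. The pairs were chosen with their values known, and with 3 pairs an exact two-sided sign-flip test cannot give a p below 0.25, so no p is given. Probe sequences were not analysed here, and cross-hybridisation between relatives was not tested.

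**Figure D4:**
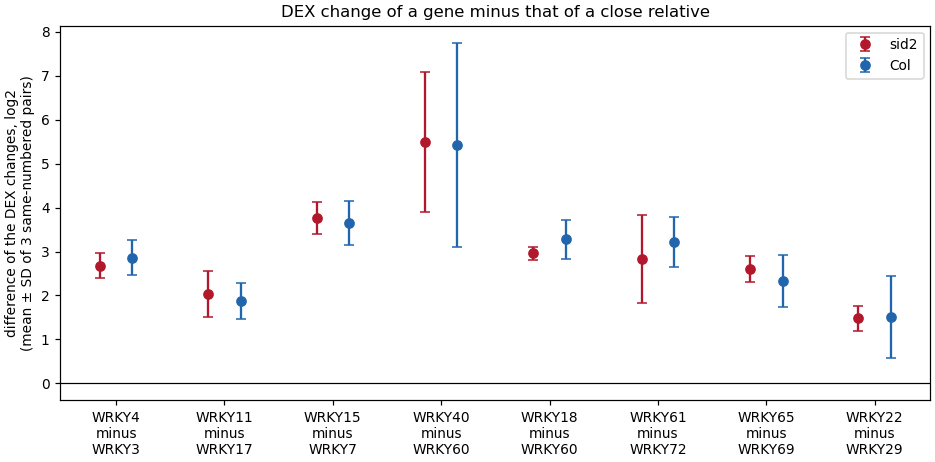
Difference between the DEX changes of 2 related members (y axis, log2, mean ± SD of 3 same-numbered pairs) for 8 pairs of genes (x axis), with sid2 in red left of Col in blue. The gene with the higher change is named first, which sets the sign, and the bars are longest for WRKY40 minus WRKY60, where mock replicate 2 of WRKY40 stands apart.

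The difference between the DEX effects in sid2 and in Col asks whether SA made through SID2 alters the response. By limma, 0 of the 54 members and 0 of 32627 loci were called for this difference. At an unadjusted p under 0.05 there were 2 members, while 2.25% of all loci were there. WRKY49, which was dim, had a difference of 0.52 ± 0.17 and WRKY31 one of -0.71 ± 0.29 (sid2 minus Col, each with an adjusted p that rounds to 1). The third smallest p belonged to WRKY56, with a difference of 0.38 ± 0.21. For 37 of the 54 members the 95% interval of the difference lay inside 2-fold in either direction, and for the other 17 it reached past 2-fold. Leaving out the array labelled Col DEX replicate 2, the count was again 0 members, with 0.00919% of loci called. The mutated gene SID2 was not called for this difference either, at -0.20 with all arrays and -2.27 (adjusted p 0.0135) when that array was dropped. A count of 0 calls here thus does not show that SA has no effect.

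Between the backgrounds, 0 members were called for sid2 minus Col with DEX, as were 0 loci, and 5 members had an unadjusted p under 0.05 (5.77% of loci). The smallest p-values belonged to WRKY58, WRKY51 and WRKY31, of which WRKY31 differed by -0.74 ± 0.20 (adjusted p 0.783). Likewise 0 members were called for sid2 minus Col in mock, where 0.00306% of loci were called, and 3 members, WRKY58, WRKY51 and WRKY45, had an unadjusted p under 0.05 (6.95% of loci). WRKY45 differed by -0.29 ± 0.13 in mock (adjusted p 0.714). For WRKY51, WRKY58 and WRKY59 the values turned on the array labelled Col DEX replicate 2, called the doubtful array below. In the limma fit of all 12 arrays the mutated gene SID2 was itself not called between the backgrounds. It differed by -4.17 with DEX (adjusted p 0.783) and by -3.97 in mock (adjusted p 0.615). Once the doubtful array was dropped it was called, at -6.24 with DEX (adjusted p 3.88e-07) and -3.97 in mock (adjusted p 8.88e-06). The 0 counts from all arrays therefore do not show that the members were alike in sid2 and Col.

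WRKY51 (AT5G64810), which with WRKY50 mediates SA-dependent repression of jasmonate signalling, had 8.32, 7.46 and 7.27 in sid2 DEX, 5.19, 5.01 and 5.25 in sid2 mock, 10.44, 7.90 and 10.50 in Col DEX and 6.75, 6.63 and 7.01 in Col mock. The doubtful array lay within the range of the sid2 DEX arrays and the other Col DEX arrays lay above it, and the mock arrays of sid2 lay below those of Col. WRKY51 rose with DEX by 2.53 ± 0.51 in sid2 (adjusted p 0.00135) and by 2.82 ± 0.51 in Col (adjusted p 6.21e-04). Without the doubtful array the change in Col was 3.64. The level in sid2 minus Col was -1.93 ± 0.51 with DEX (adjusted p 0.783) and -1.64 ± 0.51 in mock (adjusted p 0.640). Without that array it was -2.75 ± 0.25 with DEX, which was called (adjusted p 0.00174), and -1.64 in mock (adjusted p 0.0624), which was not, as 0 members were called in mock without it (0.00613% of loci).

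WRKY58 (AT3G01080), a group I gene that limits systemic acquired resistance, had 5.57, 6.17 and 5.54 in sid2 DEX, 7.66, 7.77 and 7.14 in sid2 mock, 7.47, 6.19 and 7.53 in Col DEX and 9.05, 9.04 and 8.68 in Col mock. The sid2 arrays lay below the Col arrays under both treatments, and the doubtful array was barely above the highest sid2 DEX array. WRKY58 fell with DEX by 1.76 ± 0.33 in sid2 (adjusted p 7.77e-04) and by 1.86 ± 0.33 in Col (adjusted p 5.14e-04). In Col the change was -1.36 without that array. The level in sid2 minus Col was -1.30 ± 0.33 with DEX (adjusted p 0.783) and -1.40 ± 0.33 in mock (adjusted p 0.530). Without the array it was -1.80 ± 0.20 with DEX, which was called (adjusted p 0.00553), and -1.40 in mock (adjusted p 0.0433). Thus 2 members, WRKY51 and WRKY58, were called lower in sid2 than in Col with DEX once the array was left out, where 0.116% of loci were. Without replicate 2 in any group, 0 members were called, where 0.0398% of loci were, and the adjusted p was 0.042 for WRKY51 and 0.0206 for WRKY58. Over the alternatives the adjusted p for sid2 minus Col with DEX ran from 0.00174 to 1 for WRKY51 and from 0.00553 to 1 for WRKY58.

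WRKY59 (AT2G21900) was dim on each array except replicates 1 and 3 of Col DEX. It had 3.63, 3.85 and 3.90 in sid2 DEX, 3.82, 3.60 and 3.37 in sid2 mock, 4.79, 3.74 and 6.26 in Col DEX and 3.87, 4.12 and 3.82 in Col mock. The change with DEX was 0.20 ± 0.45 in sid2 and 0.99 ± 0.45 in Col (adjusted p 0.740 and 0.083). Without the doubtful array it was 1.60 in Col and was called (adjusted p 0.0021, and between 0.0021 and 1 over the alternatives), while sid2 minus Col with DEX was -1.75 (adjusted p 0.0946).

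WRKY50 (AT5G26170) had 8.68, 8.10 and 8.46 in sid2 DEX, 8.06, 8.05 and 7.29 in sid2 mock, 9.26, 8.27 and 9.43 in Col DEX and 8.22, 7.92 and 6.79 in Col mock. The lowest DEX array lay just above the highest mock array in both backgrounds. The change was 0.62 ± 0.37 in sid2 (adjusted p 0.184) and 1.34 ± 0.37 in Col (adjusted p 0.00881), and the difference of these effects, -0.73 ± 0.52, was not called. The doubtful array was the lowest of Col DEX, and without it the change in Col was 1.72 ± 0.36 and was called (adjusted p 0.00226), while the difference was -1.10 ± 0.47 and was not. The call in Col held in 8 of 23 alternatives, so that WRKY50 is not shown to respond in Col alone.

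**Figure D5:**
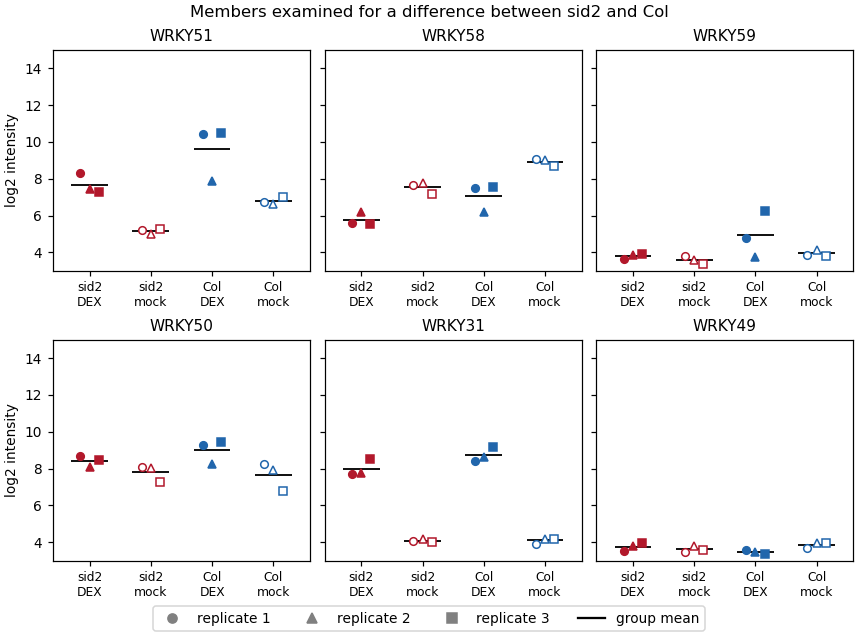
Log2 intensity on each array (y axis) by group (x axis) for WRKY51, WRKY58, WRKY59, WRKY50, WRKY31 and WRKY49, with a symbol per replicate number and bars at group means. The array labelled Col DEX replicate 2 (filled blue triangle) lies at 7.90 for WRKY51, 6.19 for WRKY58 and 3.74 for WRKY59, apart from the other Col DEX arrays and near the sid2 DEX arrays.

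Other genes of the family and the kinase cascade were examined beside the members. Of 13 group III WRKY genes, 7 rose in both backgrounds (12.2% of loci did) and 0 fell in both (14.0%), and WRKY66 was called in Col alone. Leaving out the doubtful array, 7 rose (4232 of 32627 loci did) and 2 fell (4836 loci) in sid2. In Col 11 then rose (13.2% of loci) and 0 fell (14.5%). The groups share an estimate of the spread, so calls in sid2 can change when a Col array is left out. With DEX, 5 of the 13 were then called lower in sid2 than in Col, where 0.116% of loci were. Of 5 genes of the cascade (MKK4, MKK5, MPK3, MPK6 and MPK4), MKK4 alone was called, with 2.03 ± 0.14 in sid2 and 1.92 ± 0.14 in Col, values in which transgene and resident gene are not told apart. MPK3 changed by 0.27 in sid2 and 0.16 in Col.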

How the data were processed

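Leaf RNA was hybridised with Cy3 label to NimbleGen arrays designed on TAIR9, 1 array per sample. Per the study's methods, the authors summarised probes per transcript by RMA and kept the transcript with the higher value for each gene, and deposited expression intensity values on the linear scale. The software version is not given in the sources used here. Median intensities were 255 to 289 per array. RMA brings the arrays to like distributions and hides a change of the total RNA in a cell. The number of arrays limits the precision, and probe signals, slides and background were not analysed here. Intensities were converted to log2. A model with 4 groups was fitted over all 32627 loci with lmFit and eBayes (limma 3.58.1, R 4.3.3), following the study's methods, with duplicateCorrelation (statmod 1.5.0) to treat the replicate number as a random block, at a consensus correlation of 0.208. Benjamini-Hochberg adjustment over all loci replaced the study's q-values. The scripts were tested on simulated data. The methods name 3 independent experiments, and deviations from group means correlated between same-numbered arrays at r of 0.100 to 0.733 in the groups compared, so arrays were taken as paired by number.

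Names came from a RefSeq gene table (TAIR10.1), in which 54 of 54 members were found. Subgroups, close relatives and marker lists were written from general knowledge. The rule for members used gene names alone, but the set and the lists were drawn up with earlier results of these data known. Per-array values are given for the 2 members with the largest rises and the 2 with the largest falls called in both backgrounds in each subgroup, for group IIa and for 12 members chosen by name (WRKY6, 11, 17, 22, 25, 26, 28, 29, 48, 50, 51 and 75). In contrasts without a call, the 3 members with the smallest p are named. WRKY44 and WRKY59 were added after their values were seen. Alternatives were the block, the arrays fitted, the scaling, an offset of 16, a filter on dim loci, array weights, a variance trend, treat and leaving out each array. Sequence features of the members were not analysed here.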

Additional observations from a re-analysis of the deposited data

How the results depend on the processing

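Over 23 alternatives, the count of members that rose was 18 to 23 in sid2 and 19 to 26 in Col, and the count that fell was 3 to 7 in sid2 and 3 to 6 in Col, where the lowest value, 3, came from limma's treat against a 2-fold change in both backgrounds. Treat tests against 2-fold itself, and under it WRKY25, WRKY26, WRKY29, WRKY40, WRKY44, WRKY51 and WRKY58 lost their calls in both backgrounds, WRKY61 in sid2 and WRKY50 in Col. With no replicate block, 23 members rose in sid2 and 21 in Col, and 6 fell in each, and WRKY40, WRKY26 and WRKY50 lost their calls in Col. With the replicate block as a fixed term, 23 rose in each background, 7 fell in sid2, where WRKY72 was added, and 6 in Col. Leaving out single arrays gave 21 to 23 that rose in sid2 and 21 to 25 in Col, 6 that fell in each, and 0 to 2 members called for sid2 minus Col with DEX, where the 2 came without the array labelled Col DEX replicate 2. Shifting the arrays to a common median raised each change with DEX by 0.10 in sid2 and 0.11 in Col, and WRKY32 and WRKY69 were then also called in Col.

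Over all loci, treat called 5091 in sid2 and 5328 in Col, against 4241 higher plus 4840 lower in sid2 and 4487 higher plus 4885 lower in Col by the limit used. The filter on dim loci left WRKY59 and other dim members without a value. Of 61 calls of single genes (members and WRKY33), 44 held under every alternative run. Sign changes concerned uncalled values. They were the DEX effect of WRKY22 in Col (-0.43 to 0.18 with arrays left out, 0.17 without replicate 2 in any group) and of WRKY59 in sid2 (-0.0092 to 0.33), and the difference of the DEX effects of WRKY51 (-1.10 to 0.17) and WRKY58 (-0.40 to 0.39, and -0.48 without replicate 2 in any group). Leaving out replicate 2 in each group was chosen after seeing the data. The causes were not tested.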

Other observations

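VQ proteins bind WRKY domains and alter their activity, and some are MAPK substrates. Of 11 VQ genes examined, 6 rose with DEX in both backgrounds (12.2% of loci did) and 0 fell (14.8% of loci in sid2 and 15.0% in Col). They are the genes of a longer list whose VQ name was found in the RefSeq gene table, and not the whole family. MVQ1 was called in Col alone, at the edge of 2-fold (0.96 in sid2 and 1.0 in Col, and 0.97 in Col without the array labelled Col DEX replicate 2, where it was not called). Over these genes the median change was 1.55 in sid2 and 1.09 in Col. MKS1, an MPK4 substrate that binds WRKY25 and WRKY33, rose by 1.55 ± 0.20 in sid2 and 1.09 ± 0.20 in Col. VQ9, which binds WRKY8, rose by 2.94 ± 0.20 in sid2 and 2.94 ± 0.20 in Col. SIB1, a binding partner of WRKY33, rose by 3.41 in sid2 and 2.80 in Col, while its relative SIB2 changed by -0.62 in sid2 and -0.66 in Col and was not called. JAV1, a repressor of jasmonate-dependent defence, rose by 3.45 in sid2 and 3.40 in Col. CAMBP25 averaged 10.21 in sid2 DEX, 10.76 in sid2 mock, 10.29 in Col DEX and 11.24 in Col mock and was not called. By limma, 0 VQ genes were called for the difference of the DEX effects, and 0 had an unadjusted p under 0.05 for it.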
